A study of Rattus norvegicus with 15 samples.

Results

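Kinetochore and spindle checkpoint genes were followed as a set of 41 members in rat hepatocytes sorted by DNA content. The members were taken as the array probes that carry their names, with Knl1 also sought as Casc5 and Sgo1 and Sgo2 as Sgol1 and Sgol2. Of the 41 members, 37 had at least 1 probe and 52 probes in all. The other 4, Cenpe, Cenph, Cenpp and Spc24, had no probe of that name and were not analysed here. A probe was tested where it was well above background, as the scanner software flags it, on at least 5 of the 15 arrays, which left 27 members among 17055 tested features. The 41 members were filed in 2 classes by textbook knowledge, but with earlier results of these data known. The classes held 29 mitosis-specific transcripts, of which 17 were tested, and 12 constitutive ones, of which 10 were tested.

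The samples were hepatocytes of female Wistar rats, stained for DNA with Hoechst33342 and sorted into 2c, 4c and 8c fractions in 5 independent experiments. From each experiment every fraction was hybridised to its own array, and the rats were 12, 14, 6, 5 and 6 weeks old in experiments 1 to 5. The fractions of an experiment share their age, and no treatment or genotype separates them. That they also share an isolation is inferred, since each independent experiment gave every fraction at the same age. A fraction is set by DNA content alone, so a sorted 8c cell can be octoploid or tetraploid with copied DNA. Likewise, a sorted 4c cell can be tetraploid or diploid with copied DNA. The number of animals in an experiment and the position of the sorting gates are not given in the sources used here. Since nothing says that separate animals stand behind each array, p-values measure the spread between these experiments.

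The kinetochore is the protein machine that assembles on centromeric DNA and holds the ends of spindle microtubules. A constitutive inner layer sits on chromatin that carries the histone variant CENP-A, an outer layer binds microtubules, and the spindle checkpoint reads unattached kinetochores and delays the loss of sister cohesion. Transcripts of many of these genes are made late in the cell cycle under the MuvB complexes, which bind a promoter element called the CHR, while other members are transcribed in resting cells too. In the liver, hepatocytes become tetraploid and octoploid when cells replicate DNA without completing division, and most of them rest in the adult.

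Promoters are shown for the members that the comparisons turn on, because the CHR is the element through which late cell cycle genes are known to be switched on. RefSeq promoter windows of the GRCr8 assembly, from 250 bases before to 50 bases after the annotated start, were matched for 36 of the 41 members. Cenpt, Zwint, Zwilch, Zw10 and Sgo2 had no entry, and of the 2 entries for Mis12 the first was used. The CHR was searched as TTTGAA or TTCGAA on both strands, so that TTCAAA on the printed strand is also a match, and CCAAT was searched on both strands, so that ATTGG is also a match. Capitals mark these matches. Knstrn and Spag5, whose protein products work together on the spindle, were both higher in 8c than in 2c. The stretch from 170 bases before to 30 bases after the start follows for Knstrn (chr3:126254526-126254725, plus strand) and Spag5 (chr10:63696666-63696865, plus strand).
Knstrn: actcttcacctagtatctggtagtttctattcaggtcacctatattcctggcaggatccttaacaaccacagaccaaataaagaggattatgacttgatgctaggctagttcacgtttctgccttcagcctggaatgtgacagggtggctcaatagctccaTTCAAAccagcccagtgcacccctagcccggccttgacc
Spag5: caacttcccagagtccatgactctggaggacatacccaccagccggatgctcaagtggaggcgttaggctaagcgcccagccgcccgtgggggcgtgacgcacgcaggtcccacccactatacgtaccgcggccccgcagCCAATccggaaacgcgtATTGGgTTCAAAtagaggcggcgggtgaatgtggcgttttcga

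For the other members that were higher in 8c than in 2c and held a CHR match, the bases around the match nearest to the start show the letters on either side of it. They lie at chr1:29353962-29353991 for Cenpw and chr8:93634631-93634660 for Ttk, both on the plus strand. On the minus strand they lie at chr9:118887480-118887508 for Ndc80, chr13:84255552-84255581 for Nuf2, chr3:74396758-74396787 for Spc25, chr7:115639329-115639358 for Cenpm and chr9:96315533-96315562 for Hjurp.
Cenpw: actggcggcagaTTCAAAtcaaccgctctg
Ttk: gcagcggggaaaTTCAAAcgtgtttccgga
Ndc80: gaaattttaaaaTTCAAAccgcccaaggt
Nuf2: aaaggcggctggTTTGAAaagtgacaacgg
Spc25: ggcgctccggagTTTGAAattgaaagtcgg
Cenpm: gacttgcggcggTTTGAAagatccgtgcgc
Hjurp: tgcgtaaatactTTCGAAaggacctatcag

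A CHR match was found in 22 of the 36 member promoters (61.1%) and in 6605 of all 33465 promoter windows of the same length (19.7%). Between 60 bases before and 50 bases after the start, 17 of 36 member promoters held one (47.2%), against 6.26% of all windows. Of the 10 promoters of members that were higher in 8c than in 2c, 9 held a match anywhere in the window and 8 held it near the start. All 10 belong to mitosis-specific members, since Cenpt and Zwilch, the constitutive members that were also higher, had no promoter entry. Among the 10, Ndc80, Nuf2, Ttk and Spag5 were tested only with the help of 8c arrays, where they were high. Of the 13 promoters of tested members that did not pass, 7 held a match and 3 held it near the start. Near the start, 16 of 27 mitosis-specific members and 1 of 9 constitutive members had a match. CCAAT was found in 17 of 36 member promoters (47.2%) and in 37.5% of all windows. Matches of different motifs were counted separately, also where they overlap. They describe these letters only, and the shares were not tested. The motifs and classes were chosen with earlier results of these data known, so the shares are a description.

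**Figure D1:**
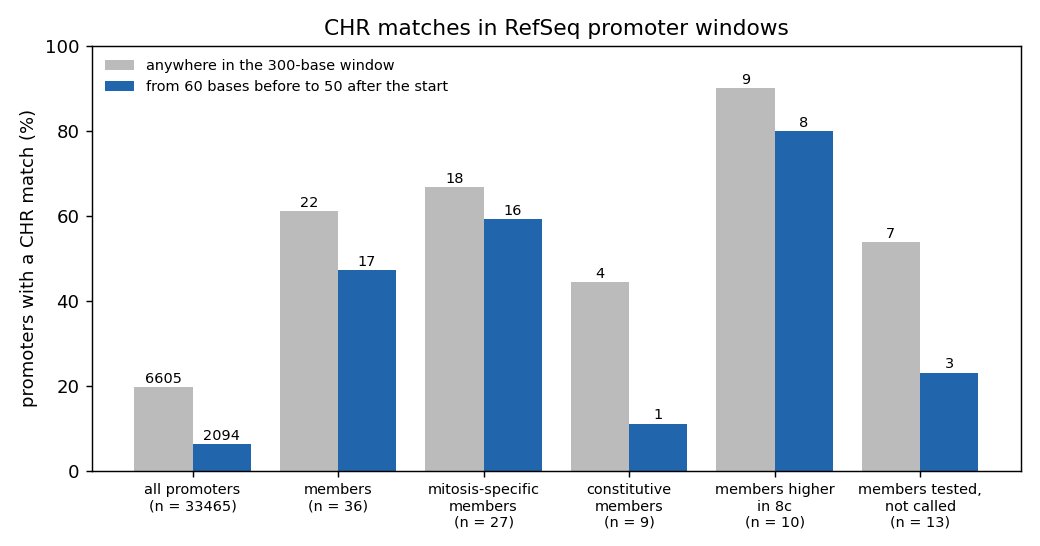
Share of RefSeq promoter windows with a CHR match, in percent, for all promoters and for groups of members; grey bars count the whole window, blue bars the stretch near the start, and the number above a bar is the count of promoters with a match. The bars of the members that were higher in 8c stand for 9 and 8 of 10 promoters, and those of all promoters reach 19.7% and 6.26%.

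All levels below are log2 processed signal relative to the 75th percentile of the array, so that 0 is that percentile and a difference of 1 is a doubling on the signal scale. Levels of different probes are not set against each other. On each array, 39.5% to 47.4% of all probes were well above background. All 10 hepatocyte markers, albumin and transthyretin among them, were well above background on every array, and their summed level lay between 9.36 and 10.04. Markers of Kupffer cells, the macrophages of the liver, had summed levels of -0.36 to 3.91 in 2c, -2.56 to -0.67 in 4c and -2.90 to -0.81 in 8c, and in 8c against 2c, 7 of the 8 that were tested were lower. Stellate cell markers behaved alike, with summed levels of 0.13 to 3.53 in 2c and -3.42 to -0.33 in 8c, and 7 of 8 lower. Markers of sinusoidal endothelium lay at -1.67 to 1.07 in 2c and -3.90 to -1.87 in 8c, with 4 of 7 lower. Of lymphocyte and erythroid markers 3 and 2 were tested, with median differences of -0.03 and 0.04, and 1 of 3 cholangiocyte markers was lower. Transcripts of pancreatic acinar cells were abundant on 6 arrays: 2c and 8c in experiment 1, every fraction in experiment 2, and 8c in experiment 3. Their summed level ran from 0.17 to 9.63 in 2c, 0.27 to 6.80 in 4c and 0.50 to 8.72 in 8c. Over 14 tested acinar genes the median difference between 8c and 2c was 0.22. Between 8c and 4c it was 2.88, with all 14 higher in 8c, and between 4c and 2c it was -2.66. In each of these comparisons 0 of 14 passed. The part of these other cells in the values of the members was not tested.

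Part of the set was higher in 8c than in 2c, mainly mitosis-specific members, and no member was called lower. In limma with Benjamini-Hochberg adjustment over all features, 12 of 27 tested members were higher in 8c than in 2c at an adjusted p under 0.05, where 0.809% of all tested features were. The count of members lower in 8c was 0 of 27, where 1.56% of all features were lower; at an unadjusted p under 0.05, 18 members were higher and 1, Zwint, was lower. All 12 were higher in each of the 5 experiments, which held for 19 of 27 members and for 7.19% of all features. The median difference over the 17 mitosis-specific members was 1.81, over the 10 constitutive members 0.18, and over all features -0.02. With only the 11 members whose probe was well above background on all arrays, the class medians were 0.27 and 0.11. With normexp background correction they were 0.41 and 0.05. Among mitosis-specific members, Ndc80, Nuf2, Ttk, Spag5 and Ska1 were tested only with the help of 8c arrays. So were the constitutive members Cenpq, Cenpt and Zwilch, and the class medians are a description. Of the mitosis-specific members 10 passed, and of the constitutive members 2, Cenpt and Zwilch.

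**Figure D2:**
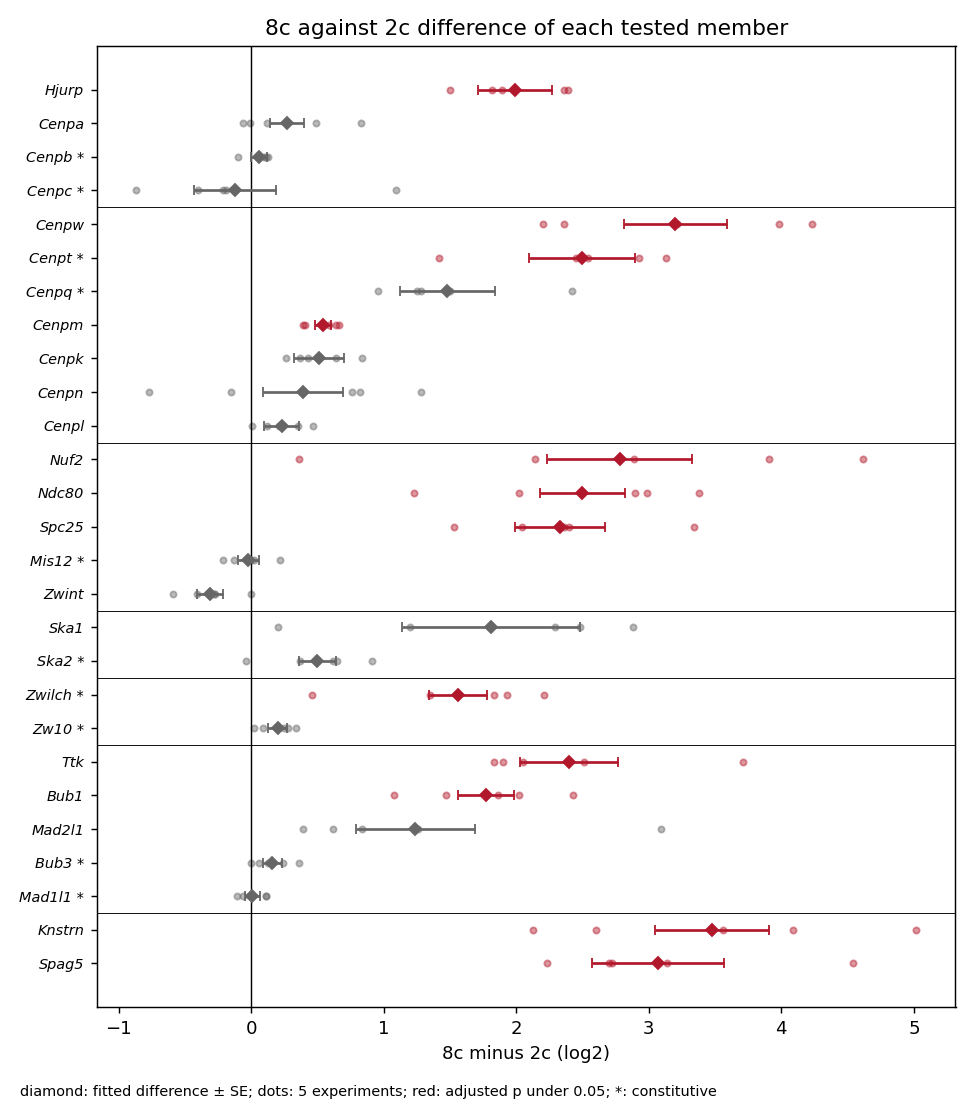
Difference between the 8c and 2c fractions for each tested member, in log2 units; diamonds with bars are the fitted difference ± SE, dots are the 5 experiments, red marks an adjusted p under 0.05 and an asterisk a constitutive member. The red diamonds lie between 0.54 and 3.48, where most are fitted against 2c signal partly below background, with all of their dots to the right of 0.

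Most of these transcripts were near the limit of detection outside 8c, which sets how far a fold can be stated. Of the 27 tested members, 18 would have passed the filter on the 2c and 4c arrays alone, and 6 of these were higher in 8c than in 2c. The other 9 passed only with the help of 8c arrays, and 6 of them were higher. Of these 9, Cenpc was above background as often in 2c as in 8c, on 3 arrays each, and the other 8 were above background more often in 8c than in either other fraction. Being high in 8c brought those 8 into the test, so counts of calls in comparisons with 8c are a description and not support. Where the lower group was not well above background on all of its arrays, a fold is given as a lower bound for dim signal, written as at least. For it, an array below background was set at the higher of its own value and the lowest level well above background on that array. Such a bound is an estimate that allows for neither the spread between experiments nor the processing. For Nuf2, the log2 difference between 8c and 2c had a 95% interval of 1.57 to 4. It ran from 0.414 to 3.39 under the alternative settings. With only the 11 members whose probe was well above background on all 15 arrays, the fit left 1 member higher in 8c than in 2c, Cenpm.

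Among the members of centromere chromatin, Hjurp was higher in 8c while the histone it carries showed little difference. Hjurp encodes the chaperone that delivers CENP-A to centromeres. Hjurp levels in experiments 1 to 5 were -5.47, -6.74, -5.02, -3.92 and -4.62 in 2c, -6.20, -7.79, -5.52, -4.47 and -7.08 in 4c and -3.12, -4.92, -2.63, -2.42 and -2.73 in 8c. The 8c level was the highest in every experiment and the 4c level the lowest, but the 8c array of experiment 2 lay below the 2c arrays of experiments 4 and 5, so the groups overlapped. Against 2c, the 8c level differed by 1.99 (SE 0.28, adjusted p = 0.00633, limma, n = 5), at least 3.81-fold. This value rests on 1 of 2 Hjurp probes. The other was well above background on 0 arrays, with 8c levels of -8.29 to -7.16. It was too dim to test and does not show the rise.

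Cenpa, the centromeric histone H3 variant itself, was well above background on all arrays. Cenpa levels were -3.90, -2.99, -3.18, -3.51 and -3.78 in 2c, -3.28, -2.96, -2.97, -3.27 and -3.70 in 4c and -3.07, -2.88, -3.23, -3.52 and -3.29 in 8c. The 3 groups overlapped almost wholly, and 8c was higher than 2c in 3 of 5 experiments. The difference was 0.27 (95% interval -0.02 to 0.56, adjusted p = 0.37, limma, n = 5). A second and dimmer Cenpa probe gave 1.12. Cenpb, which binds a centromeric repeat and is filed as constitutive, differed by 0.06 (interval -0.08 to 0.20). Cenpc, the linker between CENP-A chromatin and the outer kinetochore, was above background on 7 arrays and differed by -0.12 (interval -0.80 to 0.57).

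In the inner kinetochore, the constitutive centromere-associated network, 3 of 7 tested members were higher in 8c than in 2c. Cenpw and Cenpt encode histone-fold partners of 1 DNA-binding complex that recruits the Ndc80 complex. Cenpw levels in experiments 1 to 5 were -5.79, -7.93, -6.58, -4.30 and -6.60 in 2c, -6.59, -8.16, -5.10, -4.33 and -7.13 in 4c and -2.57, -5.57, -2.60, -2.10 and -2.37 in 8c. Experiments 1, 3, 4 and 5 reached -2.60 or more in 8c, above every 2c and 4c array, and experiment 2 did not. Cenpw differed between 8c and 2c by 3.20 (SE 0.39, adjusted p = 0.0035, limma, n = 5), at least 6.61-fold, and a second Cenpw probe gave 2.74. Cenpt levels were -6.50, -8.14, -6.45, -4.40 and -5.86 in 2c, -7.63, -8.08, -7.85, -4.80 and -8.22 in 4c and -3.57, -5.59, -3.32, -2.97 and -3.42 in 8c. The 2c and 4c levels were well above background in experiment 4 alone, and the 8c level in all experiments but 2. The difference was 2.50 (SE 0.40, adjusted p = 0.0106, limma, n = 5), at least 4.37-fold, although Cenpt had been filed as constitutive.

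Cenpm, an inner kinetochore subunit built on a small GTPase fold, was the one member of the 12 that every array measured. Cenpm levels were -1.08, -1.05, -0.59, -0.15 and -0.64 in 2c, -0.88, -0.91, -0.46, -0.09 and -0.42 in 4c and -0.42, -0.66, 0.05, 0.25 and -0.05 in 8c. The order 2c, 4c, 8c held in each of the 5 experiments, while the groups overlapped because the experiments themselves lay at different levels. Its 8c level exceeded 2c by 0.54 (SE 0.06, adjusted p = 0.00334, limma, n = 5), or 1.45-fold. Cenpq, part of the subcomplex that also holds CENP-O and CENP-U, differed by 1.48 (SE 0.36, adjusted p = 0.0669) and was higher in 5 of 5 experiments. It was above background on 1 array of 2c, 0 of 4c and 4 of 8c. Cenpk, a subunit of the complex with CENP-H and CENP-I, differed by 0.51 (interval 0.08 to 0.93) and Cenpl by 0.23 (interval -0.07 to 0.53). Cenpn, which binds the CENP-A nucleosome together with Cenpl, differed by 0.39 (interval -0.27 to 1.05). None of these 4 passed, and all but Cenpn were higher in 5 of 5 experiments.

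In the outer kinetochore, all 3 tested members of the Ndc80 complex, which holds the microtubule, were higher in 8c than in 2c. The other tested subunits, Zwint and Mis12, did not pass. Zwint and Mis12 were well above background on every array, while Ndc80 and Nuf2 were tested only with the help of 8c arrays, where they were high. A difference between the complexes and one between bright and dim probes cannot be told apart here. Ndc80 levels in experiments 1 to 5 were -6.62, -7.20, -6.76, -4.93 and -6.16 in 2c, -7.78, -8.27, -7.98, -5.33 and -7.05 in 4c and -3.63, -5.98, -3.38, -2.91 and -3.27 in 8c. Its 8c level exceeded the 2c and 4c levels within every experiment, and outside 8c it was well above background in experiment 4 alone. Ndc80 differed between 8c and 2c by 2.50 (SE 0.32, adjusted p = 0.00411, limma, n = 5), at least 4.57-fold. This value rests on 1 of 3 Ndc80 probes. The others were well above background on 0 arrays, with 8c levels of -8.1 to -6.79 and of -7.25 to -6.56. They were too dim to test and do not show the rise.

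Nuf2, the coiled-coil partner of Ndc80, had levels of -8.57, -6.77, -6.89, -5.51 and -7.63 in 2c, -8.96, -8.02, -7.82, -5.29 and -8.59 in 4c and -3.95, -6.41, -4.0, -3.37 and -3.71 in 8c. The gap between 8c and 2c was 0.36 in experiment 2, where no fraction was well above background, and 4.62 in experiment 1, where 2c was not. The difference was 2.78 (SE 0.55, adjusted p = 0.0279, limma, n = 5), at least 3.61-fold, and it passed under 6 of 17 alternative settings. Spc25, which anchors the complex to the inner kinetochore, had levels of -5.30, -7.95, -5.83, -3.79 and -4.56 in 2c, -7.02, -7.96, -6.75, -4.25 and -6.34 in 4c and -2.90, -5.59, -2.49, -2.26 and -2.53 in 8c. The 8c array of experiment 2 was as low as the 2c arrays, while the other 8c arrays stood above all 2c arrays. The difference was 2.33 (SE 0.34, adjusted p = 0.00679, limma, n = 5), at least 4.08-fold.

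Zwint, a partner of KNL1 that is filed as mitosis-specific, ran the other way. Zwint levels were -0.19, -0.28, -0.27, -0.27 and -0.10 in 2c, -0.61, -0.78, -1.08, -0.39 and -0.52 in 4c and -0.47, -0.86, -0.69, -0.28 and -0.37 in 8c. They were highest in 2c in every experiment, and the ranges of 2c and 8c met at -0.28 without overlap. Between 8c and 2c it differed by -0.31 (SE 0.10, adjusted p = 0.156, limma, n = 5) and did not pass, and groups that lay apart with 8c lower were found for 0.885% of all features. Mis12, of the complex that joins the outer kinetochore to CENP-C, lay between -2.19 and -1.64 on all 15 arrays. Its difference was -0.02 (interval -0.19 to 0.15), and a second probe gave -0.48.

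The SKA complex, which helps kinetochores follow shortening microtubules, had 2 tested members and neither passed between 8c and 2c. Ska1 was well above background in 8c of experiments 1, 3, 4 and 5, in 2c of experiment 4 and in 4c of experiment 2, and differed by 1.81 (SE 0.67, adjusted p = 0.232, limma, n = 5). Ska2 levels, on every array above background, were -3.62, -3.70, -3.50, -3.53 and -2.82 in 2c, -3.96, -3.85, -3.86, -3.48 and -3.26 in 4c and -3.0, -3.74, -2.85, -2.62 and -2.44 in 8c. The 8c level was the highest in 4 of 5 experiments, with experiment 2 the exception. The difference was 0.50 (SE 0.14, adjusted p = 0.0988, limma, n = 5), and a second Ska2 probe gave 0.33.

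Of the proteins of the corona, the outermost layer that brings dynein and checkpoint proteins to kinetochores, Zwilch and Zw10 were tested. Both belong to the RZZ complex and both were filed as constitutive. Zwilch levels were -6.52, -7.92, -7.07, -5.31 and -6.91 in 2c, -6.78, -7.92, -7.51, -6.0 and -6.82 in 4c and -5.17, -5.99, -4.85, -4.86 and -5.09 in 8c. Outside 8c it was well above background in experiment 4 alone. Zwilch was higher in 8c than in 2c by 1.56 (SE 0.22, adjusted p = 0.00631, limma, n = 5), at least 1.88-fold. Zw10 lay between -2.61 and -1.98 on all arrays and was higher in 8c in 5 of 5 experiments, with a difference of 0.20 (interval 0.05 to 0.35, adjusted p = 0.204) that did not pass.

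Among spindle checkpoint members, the kinases were higher in 8c and the other tested proteins did not pass. Ttk encodes MPS1, the kinase that starts checkpoint signalling. Ttk levels in experiments 1 to 5 were -7.75, -7.96, -5.98, -5.21 and -5.48 in 2c, -7.71, -7.93, -7.09, -5.56 and -7.66 in 4c and -4.03, -6.06, -3.47, -3.38 and -3.43 in 8c. The 8c array was the highest of each experiment, and 2c and 4c were well above background in experiment 4 alone. Ttk differed between 8c and 2c by 2.40 (SE 0.37, adjusted p = 0.00852, limma, n = 5), at least 3.58-fold. Bub1 encodes the kinase that docks on KNL1 and marks the inner centromere. Bub1 levels were -4.82, -5.87, -5.04, -3.89 and -4.57 in 2c, -5.79, -6.20, -5.34, -4.15 and -5.28 in 4c and -2.80, -4.78, -2.60, -2.42 and -2.71 in 8c. It was well above background on 13 arrays, missing only 2c and 4c of experiment 2, and the order 4c, 2c, 8c held in every experiment. Bub1 was higher in 8c than in 2c by 1.77 (SE 0.21, adjusted p = 0.00347, limma, n = 5), at least 3.42-fold.

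Mad2l1 encodes MAD2, the protein that is converted at unattached kinetochores to hold back CDC20. Mad2l1 levels were -5.62, -6.92, -5.63, -5.22 and -5.49 in 2c, -6.15, -6.22, -5.48, -5.65 and -6.47 in 4c and -5.23, -5.66, -5.01, -4.38 and -2.40 in 8c. The 8c array of experiment 5 stood far above the other 8c arrays. Between 8c and 2c it differed by 1.24 (SE 0.45, adjusted p = 0.226, limma, n = 5), and 0.78 without experiment 5, and a second Mad2l1 probe gave 0.79. Bub3, the adaptor of the BUB kinases, is also used outside mitosis and was filed as constitutive. It lay between 0.12 and 0.69 on all arrays and differed by 0.16 (interval 0.00 to 0.32). Mad1l1, the kinetochore receptor of MAD2, lay between -1.08 and -0.60 and differed by 0.01 (interval -0.13 to 0.15).

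**Figure D3:**
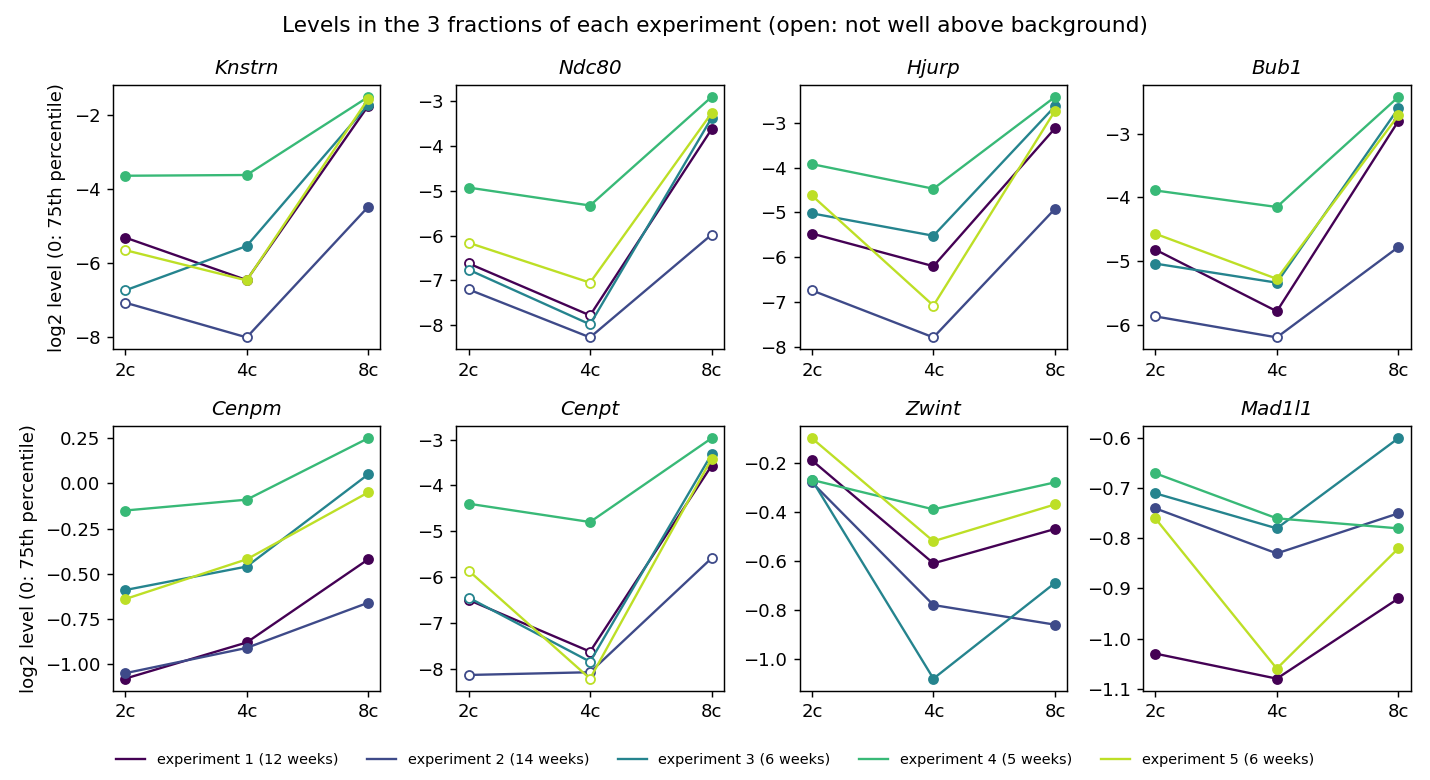
Level of 8 members in the 2c, 4c and 8c fractions, in log2 units relative to the 75th percentile of the array, with 1 line per experiment and open circles for arrays not well above background; each panel has its own scale. Knstrn, Ndc80, Hjurp, Bub1 and Cenpt climb from 4c to 8c in all 5 experiments, Cenpm climbs through all 3 fractions, Zwint is highest in 2c, and Mad1l1 stays between -1.08 and -0.60.

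Both spindle adaptors were higher in 8c than in 2c. Knstrn encodes kinastrin, which brings the product of Spag5, astrin, to the spindle and to attached kinetochores. Knstrn levels in experiments 1 to 5 were -5.32, -7.08, -6.75, -3.65 and -5.66 in 2c, -6.47, -8.02, -5.55, -3.63 and -6.48 in 4c and -1.76, -4.49, -1.73, -1.52 and -1.57 in 8c. All 8c arrays were well above background, experiments 1, 3, 4 and 5 within -1.76 to -1.52 and experiment 2 at -4.49. Knstrn exceeded its 2c level in 8c by 3.48 (SE 0.43, adjusted p = 0.00351, limma, n = 5), at least 9.64-fold. Spag5 levels were -6.02, -8.13, -7.88, -5.26 and -5.96 in 2c, -7.82, -7.75, -6.90, -5.34 and -8.26 in 4c and -3.32, -5.41, -3.33, -3.03 and -2.82 in 8c. The 8c array was the highest of each experiment, by 2.23 or more over 2c. The difference was 3.07 (SE 0.50, adjusted p = 0.011, limma, n = 5), at least 5.36-fold.

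The other 10 members with a probe were too dim to test, and what signal they had lay mainly in 8c. Cenpf, a large corona protein, and Sgo1, the guardian of centromeric cohesion, were well above background on 4 of 5 arrays of 8c and on 0 of 10 other arrays each. Their 8c levels were -6.00, -7.73, -5.29, -5.27 and -5.30 for Cenpf and -6.03, -7.90, -5.15, -5.32 and -5.28 for Sgo1 in experiments 1 to 5. Experiment 2 was the array that was not detected for both. Bub1b, the checkpoint inhibitor BUBR1, was above background on 3 arrays of 8c and 0 others. The 8c mean over 2c was at least 1.40-fold for Cenpf, 1.38-fold for Sgo1 and 1.32-fold for Bub1b. Without the filter on dim probes their adjusted p in limma between 8c and 2c was 0.0551, 0.0596 and 0.0672. Knl1, the scaffold of the checkpoint, and Dsn1, of the MIS12 complex, were above background on 2 arrays of 8c each and on 0 others. For Knl1 this is the brighter of 2 probes. The other Knl1 probe was above background on 3 of 15 arrays, with 8c levels of -7.98 to -5.43. Cenpo was detected on 1 array of each fraction and Cenpu on 1 array of 2c. Cenpi, Ska3 and Sgo2 were above background on 0 of 15 arrays.

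**Figure D4:**
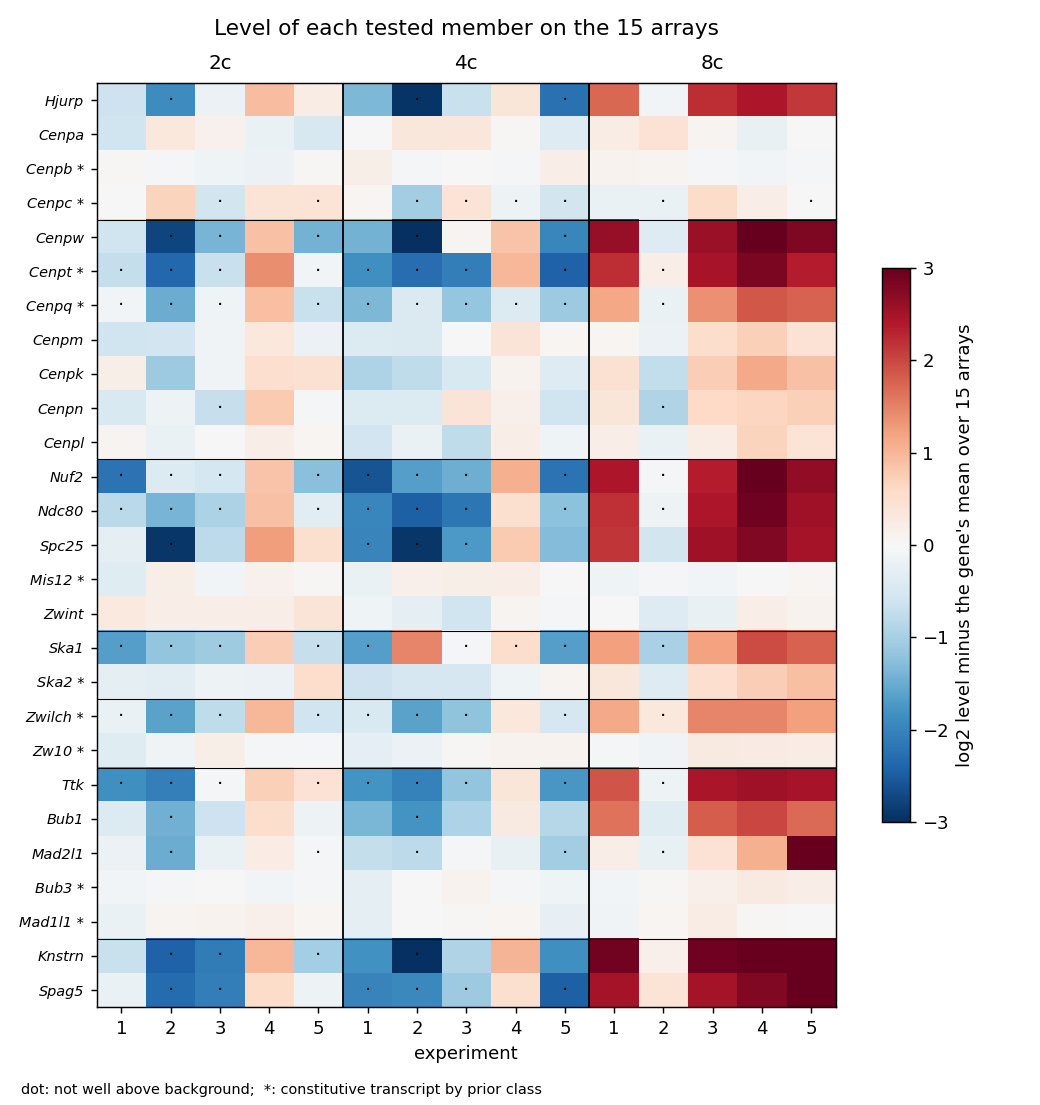
Level of each of the 27 tested members on the 15 arrays, as log2 difference from the mean of the member over all arrays, with members in rows by role, arrays in columns by fraction and experiment, and colours that end at 3 on either side; dots mark arrays not well above background and asterisks constitutive members. The 8c columns are red for most mitosis-specific members except in experiment 2, and the rows of Cenpb, Mis12, Bub3, Mad1l1 and Zw10 are nearly white throughout.

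Read by experiment, the mitosis-specific members differed between 8c and 2c by a median of 2.36, 1.08, 2.39, 1.47 and 2.04 in experiments 1 to 5. The corresponding medians of the constitutive members were 0.28, 0.04, 0.39, 0.32 and 0.25. Experiment 2, with the oldest rats, had the smallest median of either class. The 8c fraction was the highest of the 3 for 14 to 16 of the 17 mitosis-specific members in each experiment, where this held for 27.0% to 42.3% of all features. It was also the highest for 6 to 8 of the 10 constitutive members. Ndc80, Nuf2, Ttk, Spag5 and Ska1 of the first class and Cenpq, Cenpt and Zwilch of the second were tested only with the help of 8c arrays. Both counts and the medians of the classes are therefore a description. The difference between the classes was not tested. In bulk samples, more cells with a transcript and more transcript per cell cannot be told apart.

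The median level over the mitosis-specific members was -6.77 to -3.92 on the 2c arrays, -6.47 to -4.33 on the 4c arrays and -5.41 to -2.82 on the 8c arrays. The value of -5.41 was that of experiment 2, and the other 8c arrays lay at -3.23 or above. Because of this array, 0 of 27 members had all 8c levels above all 2c levels, where 0.475% of all features did. Without experiment 2, a count made after the array was seen to lie apart, 13 of 27 members did, against 2.20% of all features. Of the 13, Cenpq, Cenpt, Ndc80, Nuf2, Ttk, Spag5, Ska1 and Zwilch were tested only with the help of 8c arrays, where they were high. The count is therefore a description. The fit without experiment 2 called 15 members higher in 8c than in 2c, the 12 and also Cenpq, Ska1 and Ska2. Of all 17055 features it called 115 higher. Without experiment 1 the fit called 7 members and 55 of all features. The 2c and 4c arrays of experiment 4, from the youngest rats, had the highest medians of their fractions, -3.92 and -4.33.

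The calls rested on the pairing of fractions within experiments. With no replicate block, 0 of 27 members passed between 8c and 2c, with the same median of 1.81 for the mitosis-specific members. Of all 17055 features, 6 were then higher and 33 lower. Arrays lay on 2 slides, the first with experiments 1 and 2 and the 2c and 4c fractions of 3, the second with the rest. With the slide as the block 1 member passed, Ndc80, where 23 of 17055 features were higher. Within each slide 0 of 27 members passed, with medians of 1.61 on the first and 1.78 on the second. Of all features 0 passed within either slide, so these counts of 0 are no result about the members. Without the 6 arrays rich in acinar transcripts 0 of 27 members and 0 of all features passed, and the median was 1.86. With normexp background correction 6 members passed, Bub1, Cenpm, Cenpw, Knstrn, Spag5 and Spc25, and the median fell to 0.41. Of all features 68 were higher with normexp.

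Between 4c and 2c, no member passed in limma: 0 of 27 were higher, where 0.264% of all features were, and 0 were lower, where 1.01% were. At an unadjusted p under 0.05, 8 members were lower in 4c and 1, Cenpm, was higher. All 5 experiments went down for 7 members, and for 8.61% of all features. The median difference was -0.45 over the mitosis-specific members, -0.19 over the constitutive ones and -0.03 over all features. Hjurp differed by -1.06 (SE 0.28, adjusted p = 0.116, limma, n = 5), and was lower in 5 of 5 experiments. Zwint came nearest to passing, at -0.45 (SE 0.10, adjusted p = 0.0599, limma, n = 5), and all of its 4c levels lay below all of its 2c levels, which 0.938% of features showed. Spc25 differed by -0.98, Ndc80 by -0.95 and Bub1 by -0.51, each lower in 5 of 5 experiments. Dim signal limits these values. The bound was at least 1.69-fold for Hjurp, 1.43-fold for Spc25 and for Bub1, and 1.04-fold for Ndc80. Ndc80 was well above background on 1 array of 4c and 1 of 2c, so its difference rests mostly on signal below background.

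Between 8c and 4c, 14 of 27 members were higher in 8c in limma, where 0.639% of all features were, and 0 were lower, where 0.0117% were. At an unadjusted p under 0.05, 19 were higher and 0 lower. The 8c level exceeded the 4c level in all 5 experiments for 19 members, and for 8.82% of all features. Of the 14, 7 would have passed the filter on the 2c and 4c arrays alone and 7 (Cenpq, Cenpt, Ndc80, Nuf2, Spag5, Ttk and Zwilch) were tested only with the help of 8c arrays, where they were high, so the count is a description. The 14 were the 12 members named above with Cenpq and Ska2 in addition. Cenpq differed by 2.08 (SE 0.36, adjusted p = 0.0312, limma, n = 5), at least 2.44-fold, and all of its 8c levels lay above all of its 4c levels. Ska2, measured on all arrays, differed by 0.75 (SE 0.14, adjusted p = 0.0394, limma, n = 5), or 1.68-fold. The bounds for Knstrn, Spc25, Cenpw, Spag5 and Hjurp were at least 11.3-fold, 7.20-fold, 7.15-fold, 6.99-fold and 6.73-fold. For the remaining members that passed, the bound was 5.87-fold for Ndc80, 5.68-fold for Cenpt, 5.13-fold for Ttk, 4.88-fold for Bub1, 4.26-fold for Nuf2 and 2.31-fold for Zwilch, and Cenpm was 1.31-fold higher.

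The comparisons of 8c with 2c and with 4c share the 8c arrays, so their counts are not independent. Over the mitosis-specific members the median difference between 8c and 4c was 2.29, and over the constitutive ones 0.26. With only members whose probe was well above background on all arrays, these medians were 0.39 and 0.15. Of the constitutive members 4 passed: Cenpt, Zwilch, Cenpq and Ska2. All 8c levels lay above all 4c levels for 2 of 27 members, Cenpq and Zwilch, where 0.334% of all features did. Without experiment 2 this held for 16, against 1.70%. Cenpq, Zwilch and, among the 16, also Cenpt, Ndc80, Nuf2, Ttk, Spag5 and Ska1 were tested only with the help of 8c arrays. These counts and the medians of the classes are therefore a description. Without experiment 1 the fit called 8 members, where 51 of 17055 features were higher. With the slide as the block it called 5, where 41 features were, and with normexp 9, where 64 were. With no replicate block, on slide 2 or without the arrays rich in acinar transcripts, 0 members and 0 features were higher. On slide 1, 0 members and 1 feature were.

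For 6 members the 4c level was below the midpoint of the other fractions. Against the mean of 2c and 8c, 6 of 27 members were lower in 4c in limma, where 0.387% of all features were, and 0 were higher, where 0.0176% were. In fitted values they were Cenpt at -2.29 (SE 0.35, adjusted p = 0.0227), Ndc80 at -2.20 (SE 0.28, adjusted p = 0.0113), Spc25 at -2.15 (SE 0.29, adjusted p = 0.0138), Hjurp at -2.05 (SE 0.25, adjusted p = 0.0113), Ttk at -1.91 (SE 0.32, adjusted p = 0.037) and Bub1 at -1.40 (SE 0.19, adjusted p = 0.0114). Each was below that mean in 5 of 5 experiments, as were 16 members in all and 9.47% of all features. Within experiments, 4c was the lowest fraction for 8 to 15 of the 17 mitosis-specific members, where it was for 25.7% to 42.6% of all features. It was the lowest for 4 to 7 of the 10 constitutive members. Cenpt, Ndc80 and Ttk were tested only with the help of 8c arrays, and each was well above background on 1 of 5 arrays in 4c and in 2c, so their fitted differences rest on signal below background and the count is a description. Hjurp, Ndc80, Spc25 and Bub1 were lower in 4c than in 2c in 5 of 5 experiments, Cenpt in 4 and Ttk in 3. A value below the mean is also what a level of 4c equal to 2c gives when 8c is high, and the comparison of 4c with 2c called 0 members. The count was 0 without experiment 1, without experiment 3, with no replicate block and with normexp, and 1 without experiment 5. Over all features, 7 were lower with normexp, 1 without experiment 5 and 0 under the others.

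The age of the rats, 5 to 14 weeks, was tested as a change of the difference between 8c and 2c with each week. In limma 0 of 27 members passed, as did 0 of 17055 features (0%), and 0 members had an unadjusted p under 0.05. The slopes with the smallest p were those of Ska2, -0.06 per week (SE 0.034), and Bub3, -0.029 per week (SE 0.02). With 5 experiments and 4 ages, and with the ages unequally spread over the slides, age and slide cannot be told apart fully.

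Other genes of the same processes were read beside the members. Of 30 further kinetochore and checkpoint genes, 23 were tested and 5 were higher in 8c than in 2c: the mitotic kinase Plk1 at 3.13, the checkpoint target Cdc20 at 1.83, Birc5 at 1.83 and Incenp at 1.23, both of the chromosomal passenger complex, and the dynein regulator Nde1 at 0.51. Over all 23 the median was 0.51. Of 18 genes of the mitotic engine, the kinases, cyclins and motors that drive entry and exit, 17 were tested and 12 were higher, with a median of 2.60. Ccnb1 differed by 3.16, at least 7.02-fold, and Ect2 by 3.12, at least 6.34-fold. Some genes of these lists, among them Birc5, Ccnb1 and Ect2, were tested only with the help of 8c arrays. The counts and medians in comparisons with 8c are therefore a description. Of 30 genes of DNA replication, 23 were tested, 3 were higher and 1 was lower in 8c than in 2c, with a median of 0.01. In 4c, 6 of these 23 replication genes were lower than in 2c in limma, with a median of -0.42.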

How the data were processed

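The deposited array files hold the intensity of each spot on 1-colour Cy3 arrays, linear and, per the file headers, background-subtracted by Agilent Feature Extraction 11.5.1.1; the submitters' processing notes name version 10.7.3.1. The authors' deposited value table holds the same processed signals and served as an alternative. Control and outlier spots were left out, spots of a probe averaged, and log2 taken; from each array its 75th percentile was subtracted, found over the 16211 probes that no array had below background. No spot was saturated. The brightest tested probe stood for a gene. limma 3.58.1 in R 4.3.3 was fitted over all 17055 features with the fraction and the experiment as a block, two-sided, with Benjamini-Hochberg adjustment; the script was tested on simulated data. The block follows the replicate number in the labels: arrays of 1 experiment deviated together, with a median correlation of 0.59 over 15 pairs (0.04 to 0.79). Feature names came from accessions and symbols of the RefSeq table. Probe positions are those of rn4; no annotation of that build was used here, so exons and UTRs under probes are not named. The number of arrays limits the precision. Every member with a value is named, and of the other lists up to 6 genes that passed between 8c and 2c, largest first. The members, classes, lists and motifs were chosen with earlier results of these data known. Alternatives were other scalings, normexp with an offset of 50, other filters on dim probes, the mean of a gene's probes, no block or the slide as block, single slides, leaving out arrays rich in acinar transcripts and leaving out each experiment.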

Additional observations from a re-analysis of the deposited data

Results flagged for a closer look

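In each fraction, the highest and the lowest of the 5 levels of a member were checked for a gap to the next one that is large against the range of the group. Of 81 such groups 17 had a level that stood apart, where chance gives about 1 in 20 groups, and members of a set share their arrays.

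The 8c array of experiment 2 was the low one in 13 of the 17. Its levels were -4.92 for Hjurp, -5.57 for Cenpw, -5.59 for Cenpt, -6.21 for Cenpn, -5.98 for Ndc80, -6.41 for Nuf2, -5.59 for Spc25, -7.74 for Ska1, -5.99 for Zwilch, -6.06 for Ttk, -4.78 for Bub1, -4.49 for Knstrn and -5.41 for Spag5. The next lowest 8c level was -3.12 for Hjurp, -2.60 for Cenpw and -1.76 for Knstrn. It was not well above background for Cenpt, Cenpn, Ndc80, Nuf2, Ska1, Zwilch and Ttk. This array was also among those rich in acinar transcripts and came from the oldest rats, and the part of either in these levels was not tested.

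The other 4 were a high Cenpt level of -4.80 in 4c of experiment 4, where the next was -7.63, a low Mad1l1 level of -1.03 in 2c of experiment 1, a low Mad2l1 level of -6.92 in 2c of experiment 2 and a high Ska2 level of -2.82 in 2c of experiment 5.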

How the results depend on the processing

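The count of members higher in 8c than in 2c, 12, was 12 to 13 under quantile scaling, the median or the 75th percentile over all probes as the scaling point, the deposited value table and the mean of the probes of a gene, where 132 to 225 of 17055 features were higher. It was 11 with no filter on dim probes, where 74 of 36181 features were. The count of members was 6 with normexp, 1 with only probes well above background on all arrays, 0 with no replicate block, 1 with the slide as block, 0 on slide 1, 0 on slide 2 and 0 without the arrays rich in acinar transcripts. Over all features the counts in this order were 68, 75 of 13393, 6, 23, 0, 0 and 0. Leaving out each experiment gave 7 to 15 members, where 48 to 115 features were higher. The count for 8c against 4c, 14, was 9 with normexp, 2 with always detected probes, 5 with the slide as block and 0 with no replicate block, on slide 1, on slide 2 and without the acinar arrays, and 8 to 15 with an experiment left out. Over all features the counts in this order were 64, 40, 41, 0, 1, 0, 0 and 51 to 123. The count below the mean of 2c and 8c, 6, was 4 with no filter, 0 with normexp, always detected probes, no replicate block, the slide as block, slide 1, slide 2 or without the acinar arrays, and 0 to 9 with an experiment left out. Over all features the counts in this order were 25, 7, 23, 0, 0, 1, 0, 0 and 0 to 68. The 4c against 2c count of lower members was 0 to 1 with an experiment left out, where 3 to 124 features were lower. Where the cause is not given by fewer arrays or probes, the cause was not tested. Dim signal limits most values, since 16 of 27 tested members were below background on at least 1 array.

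Reversed signs were seen between 8c and 2c for 5 members that did not pass. Mis12 was 0.018 under quantile scaling, 0.021 with the median, 0.058 with all probes, 0.035 on slide 1 and from -0.081 to 0.027 with an experiment left out (0.027 without experiment 2 and 0.007 without experiment 4). Mad1l1 was -0.002 with normexp, -0.005 with the slide as block, -0.085 on slide 2, -0.065 without the acinar arrays and from -0.017 (without experiment 1 or 3) to 0.039 with an experiment left out. Cenpc was 0.068 under quantile scaling and from -0.417 to 0.075 (without experiment 2) with an experiment left out, Cenpn -0.065 with normexp and Cenpl -0.012 on slide 1.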
